A study of Mus musculus with 15 samples.

Results

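A group of 8 neighbouring genes on chromosome 11 was followed, namely H3f3b, Unc13d, Galr2, Exoc7, Cygb, St6galnac2, Jmjd6 and 1110005A03Rik. They were picked by symbol, as 8 of the 26628 genes measured, because their levels differed between mouse lines in these same samples, so every value below that compares the lines is a description of genes already chosen for it. All 8 start between positions 116000000 and 117000000 of chromosome 11 (genome build GRCm38), a segment that holds 41 of the genes measured, and all 8 were among the 15213 genes with at least 1 CPM (count per 1000000 counts of the sample) in 3 or more samples. The samples were whole cerebellum (Ce) and whole striatum (St) from male Hsd:ICR mice, an outbred stock, of 6 weeks of age by the labels and 7 weeks by the study's text. The mice came either from a line bred for high voluntary wheel running (Hi) or from an unselected control line (Co). Every mouse of both lines had a running wheel in its cage until dissection on day 7. This gave 4 samples each of CeCo, CeHi and StCo and 3 of StHi. With 1 Hi and 1 Co line in the study, the consequences of selection and of the separate descent of the lines cannot be told apart. By the study's account the Hi mice also ran more on these wheels than the Co mice. An effect of running itself therefore cannot be told apart from line either. The labels do not say whether a Ce and an St sample came from one mouse. Which line was higher rests on the control and selected labels of the samples, which no measured gene checks, and every direction between lines below would turn if those labels were exchanged. For the flanking genes Rab37 and Cd300lf below, the study's control against selected differences carry the sign that Hi minus Co has here. Its text reads Cd300lf as over-expressed in the St of Hi mice, opposite to the labels. The values here do not settle which reading is right.

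The 8 genes share an address, and their products belong to different families, though those of Unc13d and Exoc7 both serve secretion at the plasma membrane. Unc13d encodes Munc13-4, which prepares secretory granules for fusion with the plasma membrane and is best known from cytotoxic T cells, mast cells and platelets. Exoc7 encodes the EXO70 subunit of the exocyst, the complex that tethers secretory vesicles to the plasma membrane. Galr2 encodes a G protein-coupled receptor for the neuropeptide galanin. H3f3b encodes the histone variant H3.3, Cygb the oxygen-binding globin cytoglobin, and St6galnac2 a Golgi enzyme that adds sialic acid to O-linked glycans. Jmjd6 encodes a hydroxylase of lysine residues with a JmjC domain, and 1110005A03Rik, called Mettl23 in RefSeq, a protein of the methyltransferase-like family. In closed mouse lines neighbouring genes are inherited together as blocks of chromosome.

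The genes were placed with RefSeq (GRCm38.p6). From the centromeric side, H3f3b lies at chr11:116021961-116026039 on the minus strand and Unc13d at chr11:116062095-116078495 on the minus strand. Galr2 follows at chr11:116280106-116283950 on the plus strand, and Exoc7 at chr11:116287997-116306750 on the minus strand, so that these neighbours point towards each other. Cygb lies at chr11:116645595-116654504 and St6galnac2 at chr11:116676703-116695782, both on the minus strand. Jmjd6 at chr11:116837432-116843767 on the minus strand and 1110005A03Rik at chr11:116843515-116849740 on the plus strand point away from each other and overlap at their starts.

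The stretch before Exoc7 is shown because Exoc7 is 1 of the 3 genes whose Hi and Co samples were apart in both brain regions, and because the RNA gene Gm26730 lies next to it in the opposite direction. It is RefSeq sequence of GRCm38.p6, the 113 bases between the RefSeq spans of both genes (chr11:116306751-116306863), read on the minus strand towards Exoc7. Capitals mark CG dinucleotides, the sites of DNA methylation in mammals.
Exoc7: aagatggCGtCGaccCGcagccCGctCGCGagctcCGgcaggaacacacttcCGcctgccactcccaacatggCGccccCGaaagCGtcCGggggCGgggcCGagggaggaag
The stretch held 14 CG dinucleotides and 71.7% G and C, where the median of the same positions in all 32851 promoters of the table was 3 CG. A GC box (the letters GGGCGG on either strand) occurred 1 time, and 24.3% of all promoters held one at these positions. The CCAAT box was searched by those letters on both strands and was not found, and is held by 20.6% of promoters there. The E-box of the letters CACGTG was not found either, and is held by 3.3%. Methylation and binding at this stretch were not analysed here.

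Values are fragment counts that the authors normalized for library size, with no division by transcript length, so they are compared between samples and not between genes. The libraries held 32909386 to 47485536 fragments, and 1 fragment was worth 0.841 to 1.30 normalized counts. The labelled tissues were checked against 8 markers each: the summed level of cerebellar neuron markers was 7328 to 8211 CPM in Ce and 284 to 377 in St, and that of striatal neuron markers was 3956 to 5590 in St and 207 to 292 in Ce. Within a region some marker lists shifted between the lines. Striatal neuron markers ran from 264 to 292 CPM in CeHi and 207 to 246 in CeCo, and oligodendrocyte markers from 6678 to 7601 in StHi and 4390 to 6237 in StCo. Endothelial markers ran from 176 to 184 in CeHi and 165 to 173 in CeCo. Pericyte and fibroblast markers ran from 151 to 198 in CeHi and 194 to 235 in CeCo, with overlap. Choroid plexus markers varied most among samples of one group, from 32.6 to 3000 in CeCo, 23.7 to 2798 in CeHi, 29.1 to 42.8 in StCo and 41.4 to 417 in StHi. Of the genes of all marker lists, 3 were called between lines: Col3a1, given with Cygb below, Cbln1, a cerebellin of granule cells, in St (0.51 ± 0.12, adjusted p = 0.026) and C1qb, a complement gene of microglia, in both regions (0.39 ± 0.08 in Ce, adjusted p = 0.0052, and 0.44 ± 0.08 in St, adjusted p = 0.0058). The part of these shifts in the differences below was not tested, and in whole tissue fewer cells of a type and less RNA per cell cannot be told apart.

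Between the lines the 8 genes split into 4 that were lower in Hi (H3f3b, Unc13d, Exoc7, St6galnac2) and 4 that were higher (Galr2, Cygb, Jmjd6, 1110005A03Rik), with the same sign in both brain regions for all 8. Across all genes tested, 61.6% had the same sign in both regions. The differences between Hi and Co on the log2 scale ran from -0.91 (St6galnac2) to 0.48 (Cygb) in Ce and from -0.76 (St6galnac2) to 0.93 (Galr2) in St. The median size of the difference, without its sign, was 0.33 in Ce and 0.22 in St for the 8 genes, and 0.097 and 0.085 over all genes tested.

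**Figure D1:**
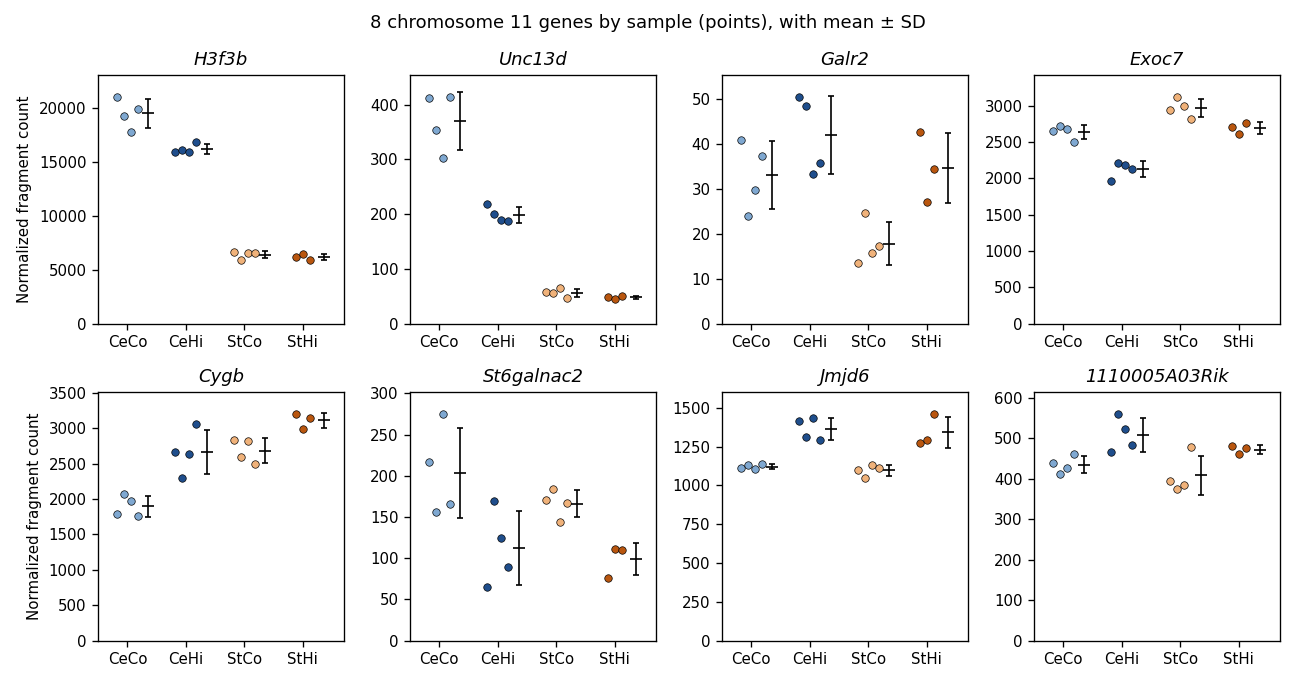
Normalized fragment counts (vertical axes, from 0) of the 8 genes in each sample of the 4 groups, with the mean and SD of the group beside the points. Unc13d and H3f3b are high in Ce and low in St, Jmjd6 in every Hi sample lies above every Co sample, and St6galnac2 spreads widely within CeCo and CeHi.

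Unc13d, the granule fusion gene, was lower in Hi in Ce. The CeCo samples held 413, 353, 302 and 413 normalized counts, and the CeHi samples 219, 200, 189 and 187. Every CeHi sample was below every CeCo sample, and the CeHi mean was 53.7% of the CeCo mean (log2 difference -0.89 ± 0.13 SE). In St the gene was low in both lines, at 58.0, 55.4, 65.1 and 47.5 in StCo and 48.0, 45.6 and 51.1 in StHi. These groups overlapped, with a log2 difference of -0.22 ± 0.14 SE. The log2 difference in Ce minus that in St was -0.67 ± 0.19. Of 10 markers of the cytotoxic lymphocytes, mast cells and platelets in which Munc13-4 is best known, 7 (Prf1, Gzma, Gzmb, Nkg7, Cd3e, Cpa3 and Mcpt4) had 3 fragments or fewer in all 15 samples. The summed level of the 10 was 1.4 to 1.7 CPM in CeCo and 1.5 to 2.0 in CeHi.

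Exoc7, the exocyst subunit, was lower in Hi in both regions without overlap. In Ce it measured 2645, 2717, 2676 and 2495 in CeCo and 1969, 2215, 2187 and 2124 in CeHi, a log2 difference of -0.32 ± 0.05 SE. In St it measured 2944, 3114, 2997 and 2821 in StCo and 2704, 2610 and 2767 in StHi, a difference of -0.15 ± 0.05. The decrease was to 80.7% of the Co mean in Ce and 90.7% in St. In the GENCODE annotation, where an isoform of Exoc7 has an exon farther upstream than in RefSeq, the gene shares 293 exon bases with Gm26730 on the opposite strand, and the sources used here do not say whether counting used strand.

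Galr2, the galanin receptor, had the fewest fragments of the 8. The StCo samples held 13.6, 24.7, 15.8 and 17.4 normalized counts and the StHi samples 42.8, 27.2 and 34.4. All StHi samples exceeded all StCo samples, and the StHi mean was 195% of the StCo mean (log2 difference 0.93 ± 0.26 SE). In Ce the groups overlapped, with 41.0, 24.1, 29.9 and 37.4 in CeCo and 50.5, 48.5, 33.3 and 35.9 in CeHi, a log2 difference of 0.34 ± 0.24. At these counts only large differences could be resolved.

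Cygb, the globin, had the highest log2 difference of the 8 genes in Ce. Its values were 1789, 2066, 1975 and 1760 in CeCo and 2661, 2297, 2632 and 3066 in CeHi. The Hi samples lay above the Co samples, with a mean of 140% of Co and a log2 difference of 0.48 ± 0.08 SE. In St the values were 2835, 2589, 2823 and 2494 in StCo and 3199, 2995 and 3149 in StHi, again without overlap (0.21 ± 0.08). Cytoglobin is known from fibroblast-like cells, pericytes and some neurons. The 8 pericyte and fibroblast markers had a median log2 difference of -0.30 in Ce. Their summed levels overlapped, at 151 to 198 CPM in CeHi and 194 to 235 in CeCo. Of these markers 1 was called in Ce: Col3a1, a fibrillar collagen, was lower in CeHi by -0.86 ± 0.16 (adjusted p = 0.0029). The part of such cells in the Cygb difference was not tested. Cygb shares 201 exon bases with Prcd on the opposite strand, listed in the table as Gm11744, whose log2 difference was 0.39 ± 0.20 in Ce and 0.73 ± 0.22 in St.

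St6galnac2, the sialyltransferase, was lower in Hi on average in both regions, with an SE close to that of Galr2. The CeCo samples held 216, 156, 275 and 166 normalized counts and the CeHi samples 65.6, 170, 124 and 89.8. A CeHi sample (170) was above 2 CeCo samples, so the groups overlapped although the CeHi mean was 55.3% of the CeCo mean (log2 difference -0.91 ± 0.25 SE). In St the groups were apart, with 170, 184, 144 and 166 in StCo and 76.5, 111 and 110 in StHi (59.7%, -0.76 ± 0.27). The gene overlaps 1810032O08Rik on the opposite strand over 497 exon bases, and that gene differed by -0.13 ± 0.12 in Ce and -0.14 ± 0.13 in St.

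Jmjd6 was higher in Hi by nearly the same amount in both regions. In Ce it measured 1116, 1130, 1104 and 1136 in CeCo and 1413, 1313, 1434 and 1292 in CeHi. In St it measured 1100, 1045, 1134 and 1110 in StCo and 1272, 1294 and 1459 in StHi. No Hi sample of either region fell within the Co range, and the log2 differences were 0.27 ± 0.06 SE and 0.28 ± 0.06. Its head-to-head neighbour 1110005A03Rik (Mettl23) measured 438, 411, 426 and 461 in CeCo and 466, 559, 523 and 484 in CeHi (0.22 ± 0.09). In St it measured 394, 375, 384 and 478 in StCo and 480, 460 and 475 in StHi (0.21 ± 0.09), and the StCo sample of 478 lay inside the StHi range. 1110005A03Rik shares 172 exon bases with Jmjd6, 460 with Srsf2 and 257 with Mfsd11, and 33.9% of its 50-base windows also occur in transcripts of other genes, most often Srsf2, Gm14127 and Mfsd11. Reads of these stretches may have been split between the genes.

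H3f3b, the H3.3 gene, was lower in Hi without overlap in Ce and with overlap in St. The CeCo samples held 20952, 19265, 17794 and 19900 normalized counts and the CeHi samples 15926, 16053, 15936 and 16861, without overlap (log2 difference -0.27 ± 0.06 SE, a mean of 83.1% of Co). In St the values were 6628, 5874, 6561 and 6526 in StCo and 6195, 6420 and 5937 in StHi, which overlapped (-0.05 ± 0.06). H3f3a on chromosome 1, which encodes the same protein, differed by 0.01 ± 0.06 in Ce and 0.08 ± 0.07 in St. Of the 50-base windows of H3f3b, 6.86% also occur in other transcripts, most often those of the pseudogenes Gm6485, Gm37486 and Gm43584.

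**Figure D2:**
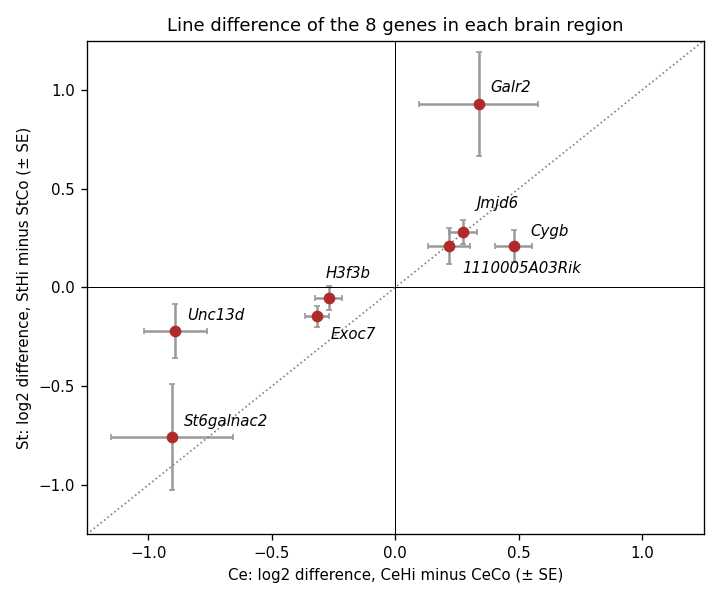
Log2 difference between lines (Hi minus Co) in Ce, horizontal, against that in St, vertical, for the 8 genes, with bars of 1 SE and a dotted line of equal differences. All 8 points lie in the quadrants of equal sign; Unc13d lies far from the dotted line towards a larger difference in Ce and Galr2 towards a larger one in St.

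By the samples alone, Hi and Co did not overlap in Ce for 6 of the 8 genes and in St for 5, against 13.3% and 13.1% of all genes. Exoc7, Cygb and Jmjd6 were apart in both regions in the same direction, as were 3.51% of all genes. In the fit across all genes (limma, false discovery rate under 0.05), 5.94% of genes were called in Ce and 2.66% in St. In Ce the called members were Cygb and Jmjd6, higher in Hi (2.94% of all genes), and H3f3b, Unc13d, Exoc7 and St6galnac2, lower in Hi (2.99%). In St, Jmjd6 was called as higher (1.49% of all genes) and 0 members as lower (1.17%). The calls of St6galnac2 in Ce and of Jmjd6 in St did not hold in every alternative fit. A difference between regions in the size of the line difference was called for 0 of the 8 and for 0.532% of all genes. Since the genes were chosen on these differences, nothing is read from the counts.

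The genes were taken as chosen for line differences, and the record does not give the comparison of Ce with St as a ground. That comparison was therefore tested. Averaged over both lines, 5 of the 8 genes differed between regions, where 80.2% of all genes did. Unc13d was higher in Ce by 2.35 ± 0.09 on the log2 scale (adjusted p = 2.1e-13) and H3f3b by 1.49 ± 0.04 (adjusted p = 1.5e-15), with every Ce sample above every St sample. Galr2 was higher in Ce by 0.56 ± 0.18 (adjusted p = 0.0086), with overlapping samples, and by 1.12 (adjusted p = 3.6e-05) under quantile scaling. Exoc7 and Cygb were lower in Ce, by -0.26 ± 0.04 (adjusted p = 3.8e-06) and -0.37 ± 0.06 (adjusted p = 1.1e-05). For St6galnac2 (0.18 ± 0.18, adjusted p = 0.37), Jmjd6 (0.02 ± 0.04, adjusted p = 0.61) and 1110005A03Rik (0.09 ± 0.06, adjusted p = 0.18) no difference passed the test.

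Within each line the difference between regions had the same sign for all 8 genes. For Unc13d it was 2.68 ± 0.13 in Co and 2.01 ± 0.14 in Hi, and for H3f3b 1.60 ± 0.06 in Co and 1.38 ± 0.06 in Hi. For Galr2 it was 0.85 ± 0.24 in Co and 0.26 ± 0.26 in Hi. Cygb was lower in Ce by -0.51 ± 0.08 in Co and -0.24 ± 0.08 in Hi, and Exoc7 by -0.18 ± 0.05 in Co and -0.35 ± 0.05 in Hi.

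**Figure D3:**
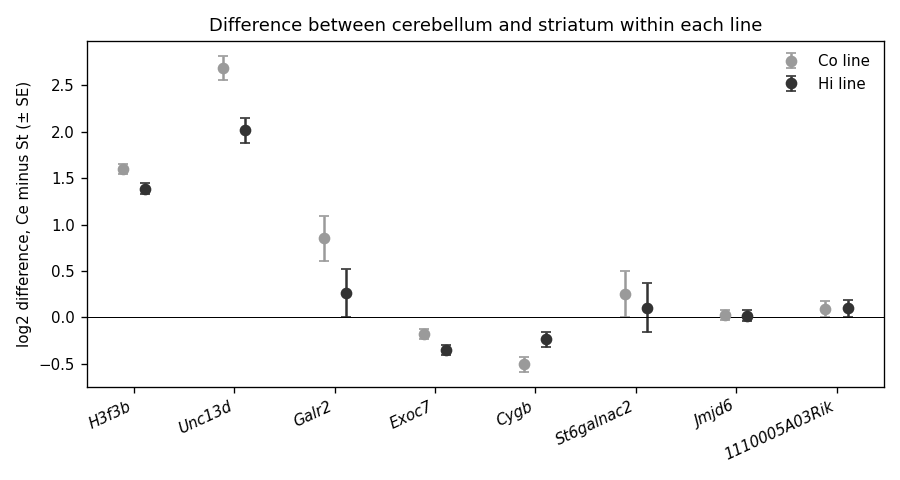
Log2 difference between Ce and St (positive is higher in Ce) of the 8 genes within the Co line (grey) and the Hi line (black), with bars of 1 SE. Unc13d and H3f3b stand far above 0 in both lines, and Jmjd6 and 1110005A03Rik lie near 0 in both.

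Among the other 33 genes of the segment in the table, 25 passed the filter. Of these, 0 were called between the lines in Ce and 1 in St, where 5.94% and 2.66% of all genes were called. The 8 genes were taken from this segment for their line differences, which by itself leaves fewer calls among the rest. Nothing is therefore read from the counts or sizes of these 25 genes. The called gene was Evpl, which encodes envoplakin of the cornified envelope. Its mean was 124 ± 28.1 (SD, n = 4) in StCo and 205 ± 20.7 (SD, n = 3) in StHi. Its log2 difference was 0.74 ± 0.19 in St (adjusted p = 0.044) and -0.36 ± 0.17 in Ce (adjusted p = 0.27). The median size of the line difference over the 25 genes was 0.12 in Ce and 0.12 in St. The long noncoding RNA gene BC018473 (chr11:116752167-116757883), below the filter and not tested, was at 0 in all 8 Co samples and at 3.9 to 12.7 normalized counts in all 7 Hi samples. Galk1, the galactokinase gene just before H3f3b, differed by -0.12 ± 0.14 in Ce and -0.43 ± 0.16 in St. Srsf2, a splicing factor gene just after 1110005A03Rik, differed by -0.06 ± 0.06 and 0.01 ± 0.07. At the far bounds, B230344G16Rik before the segment differed by 0.71 ± 0.20 in Ce, where it was called (adjusted p = 0.041), and by 0.12 ± 0.21 in St. Mgat5b at the end of the segment differed by -0.12 ± 0.07 and 0.03 ± 0.08, and 2810008D09Rik beyond it by 0.06 ± 0.09 and 0.19 ± 0.09.

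**Figure D4:**
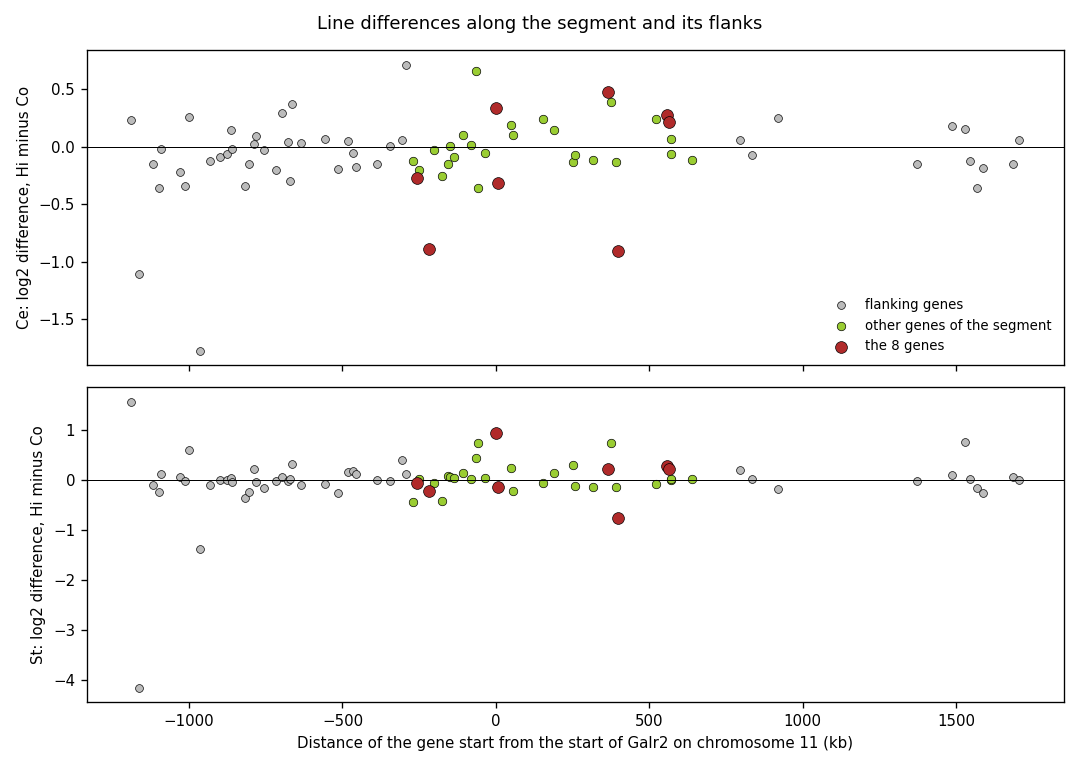
Log2 difference between lines (Hi minus Co) in Ce (top) and St (bottom) of every tested gene of the segment and its flanks, by distance of its start from that of Galr2 in kb. Other genes of the segment (green) run from -0.36 to 0.66 (Cdk3-ps) in Ce and from -0.43 to 0.74 (Evpl) in St around the 8 genes (red), and the points farthest from 0, Ush1g in Ce and Cd300lf in St, lie in the flank before the segment (grey).

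Line differences in the flanks, which were not used to choose the 8 genes, were tested. Of 45 tested genes that start between 115000000 and 116000000 or between 117000000 and 118000000, 7 were called in Ce and 7 in St, 2 of them in both, where 5.94% and 2.66% of all genes were called. Of these 12 genes, 11 lay in the flank before the segment, where 34 genes were tested, and 1 beyond it, where 11 were. The call in Ce was sensitive to single samples: 3 flanking genes were called when CeCo replicate 0, CeCo replicate 3 or CeHi replicate 3 was left out, and 4 without CeHi replicate 0 or CeHi replicate 1.

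Ush1g was called in both regions. The gene, which encodes a scaffold protein of inner ear hair cells, was at 134 to 208 in CeCo and 38.9 to 59.1 in CeHi, a log2 difference of -1.77 ± 0.19 (adjusted p = 1.4e-05). In St it was at 29.3 to 46.2 in StCo and 12.6 to 16.6 in StHi, a difference of -1.38 ± 0.21 (adjusted p = 0.00082).

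Rab37 and Cd300lf, called in St, differed between lines by unequal amounts in the regions. Rab37, a small GTPase of secretory granules, was at 52.1 to 57.8 in StCo and 133 to 210 in StHi, a log2 difference of 1.57 ± 0.12 in St (adjusted p = 4.1e-07). In Ce its difference was 0.23 ± 0.11 (adjusted p = 0.26), and the line by region interaction was called (adjusted p = 0.00061). Cd300lf, an inhibitory receptor of myeloid cells, was at 54.3 to 67.6 in StCo and 1.2 to 6.8 in StHi. By these labels it was lower in Hi, where the study's text gives the opposite direction. The StHi samples held 9 fragments in all, of which StHi replicate 1 held 7, and 2 of the 3 samples were under a floor of 3 fragments per library. The StHi mean was also under that floor, and against the floor it was at least 15.4-fold below the StCo mean. The fitted log2 difference of Cd300lf depends on the pseudocount at such counts. It was -4.17 ± 0.37 in St (adjusted p = 2.2e-06) and -1.10 ± 0.34 in Ce (adjusted p = 0.071), with a called interaction (adjusted p = 0.0084). Cd300lf lies within the span of Rab37 on the other strand, so their reads may not be fully separated without strand. The 7 microglia markers, of the brain's own myeloid cells, summed to 338 to 358 CPM in StCo and 341 to 371 in StHi.

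The next 6 flanking genes by adjusted p were called in 1 region each. Fads6, a fatty acid desaturase gene, and Syngr2, a synaptogyrin gene of vesicle membranes and the 1 gene beyond the segment, were higher in StHi by 0.60 ± 0.08 (adjusted p = 0.00033) and 0.75 ± 0.12 (adjusted p = 0.0014). 2310067B10Rik was lower in StHi by -0.27 ± 0.06 (adjusted p = 0.029). Gga3, an adaptor of vesicle sorting at the Golgi, was higher in CeHi by 0.29 ± 0.05 (adjusted p = 0.0017). Mif4gd and Fdxr, the ferredoxin reductase of mitochondria, were lower in CeHi by -0.29 ± 0.07 (adjusted p = 0.020) and -0.34 ± 0.09 (adjusted p = 0.031).

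**Figure D5:**
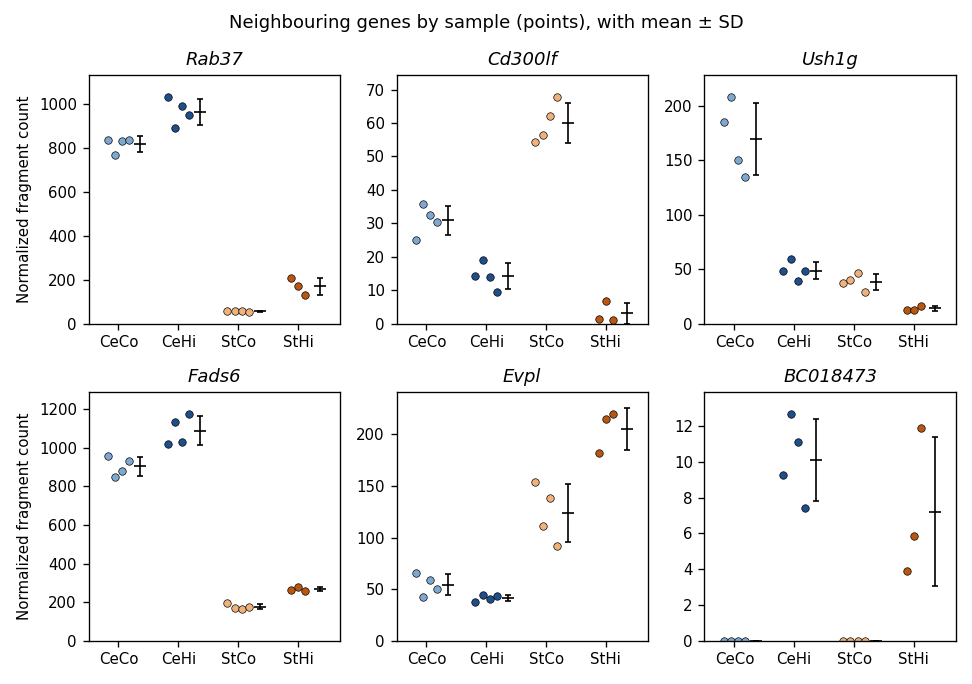
Normalized fragment counts (vertical axes, from 0) in each sample, with the group mean and SD, of 4 flanking genes and of Evpl and BC018473 of the segment. Cd300lf is near 0 in StHi, Ush1g is lower in Hi in both regions, and BC018473 is at 0 in every Co sample.

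In 7 lists of relatives and partners of the 8 products, 4 of 57 tested genes were called between the lines in Ce and 2 of 57 in St, beside 5.94% and 2.66% of all genes. Of 11 tested genes of the UNC13 family and of cytotoxic granule release, 1 was called in Ce and 0 in St: Stxbp2, which encodes the Munc18-2 protein of granule fusion, was lower in CeHi by -0.50 ± 0.13 (adjusted p = 0.030). The median of the list was -0.08 in Ce and -0.12 in St, beside -0.0021 and -0.0046 over all genes. Of 13 tested genes of the exocyst and its regulators, 12 were not called in either region. The exception was 1200009I06Rik (Exoc3l4, an exocyst-like gene on chromosome 12), higher in Hi by 1.22 ± 0.18 in Ce (adjusted p = 0.00032) and 1.58 ± 0.19 in St (adjusted p = 8e-05). The median of the exocyst list was -0.01 in both regions.

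Of the galanin system, 2 of 5 genes could be tested and 0 were called. Gal, the galanin peptide precursor, differed by 1.40 ± 0.57 in Ce (adjusted p = 0.18) and 0.72 ± 0.61 in St (adjusted p = 0.69), and the receptor gene Galr1 by 0.48 ± 0.20 (adjusted p = 0.19) and 0.16 ± 0.22 (adjusted p = 0.83). Among 6 tested globins and related genes 0 were called, with medians of 0.56 in Ce and 0.54 in St. The blood markers, which are hemoglobin genes and Alas2 of this same list, summed to 29.9 to 74.2 CPM in CeCo and 45.8 to 123 in CeHi, and to 16.7 to 27.6 in StCo and 31.8 to 35.3 in StHi. Ngb, the globin of neurons, differed by 0.84 ± 0.43 in Ce (adjusted p = 0.30) and 0.02 ± 0.46 in St (adjusted p = 1).

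Of 8 tested sialyltransferase genes, 1 was called: St6galnac4 was lower in CeHi by -0.24 ± 0.06 (adjusted p = 0.026) and differed by -0.06 ± 0.07 in St (adjusted p = 0.80). The list medians were 0.03 in Ce and -0.02 in St. Of 9 tested genes for H3.3 and its chaperones, Cabin1, a subunit of the HIRA chaperone complex, was lower in CeHi by -0.21 ± 0.05 (adjusted p = 0.031), and the medians were -0.02 and 0.04. Of 8 tested genes of JmjC proteins and of partners of Jmjd6, Hif1an, an asparagine hydroxylase of the hypoxia factor, was lower in StHi by -0.31 ± 0.05 (adjusted p = 0.003). The medians of that list were -0.02 and -0.04, and U2af2, a splicing factor that Jmjd6 hydroxylates, differed by 0.02 ± 0.05 in Ce and 0.05 ± 0.05 in St.

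Likeness to each of the 8 genes was measured as Pearson's correlation of log2 values over the 15 samples after the mean of each region was subtracted, so line differences shared by both genes enter it. Of the 16 nearest genes 15 could be placed, and these 15 lay outside the segment, which held 33 of the 15213 genes tested. The 8 genes were chosen for line differences, which enter the correlation. Nothing is therefore read from the size of r or from where the nearest genes lie. For Unc13d the nearest genes were Tubgcp6 on chromosome 15 (r = 0.96) and Usp22 on chromosome 11 (r = 0.95), which starts far from the segment at 61151781. For Jmjd6 they were Psmc3ip on chromosome 11 (r = 0.95), starting at 101092141, and F2r on chromosome 13 (r = 0.95). For Cygb they were Ppa1 on chromosome 10 (r = 0.95) and Ramp1 on chromosome 1 (r = 0.93), and for Exoc7 Sec31b on chromosome 19 and Vps52 on chromosome 17 (both r = 0.93 to 0.94). For H3f3b they were 6430706D22Rik on chromosome 1 (r = 0.92) and Ubox5 on chromosome 2 (r = 0.91), and for 1110005A03Rik Shfm1 on chromosome 6 (r = 0.90) and P4ha1 on chromosome 10 (r = 0.89). St6galnac2 was nearest to Gm17315 on chromosome 17 (r = 0.88) and 4932438H23Rik on chromosome 16 (r = 0.88). Galr2 was nearest to Cdkl4 on chromosome 17 (r = 0.87) and LOC100862167, which was not placed (r = 0.85).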

How the data were processed

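RNA was sequenced as paired reads from cerebellum and striatum. The authors aligned reads with TopHat2 to GRCm38 and used Cuffnorm 2.2.1 on the fragments. The deposited signal is a fragment count per gene divided by a factor for library size, as the steps between low values show (99.6% to 99.8% whole multiples, within 0.1 step), although it was deposited as FPKM. It holds 38499264 to 43669012 counts per sample. The authors left out 1 StHi sample after principal component analysis. No source used here gives the strandedness of the libraries.

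Genes with at least 1 CPM in 3 or more of the 15 samples were kept (15213). Values were scaled by TMM factors (edgeR 4.0.16, 0.933 to 1.05) and fitted as log2(value + 1) with limma 3.58.1 in R 4.3.3, with trended and robust empirical Bayes moderation and 1 mean for each of the 4 groups. Fold changes are on the log2(value + 1) scale, which understates changes of low genes. P-values were adjusted by Benjamini-Hochberg over all genes tested and called under 0.05. The labels do not say whether the mice shared litters, and p-values measure the spread between these samples. Genes were placed by symbol or synonym with RefSeq (24576 of 26628).

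The 8 genes, the gene lists and the marker lists were chosen with earlier results of these data known. The record does not name the comparison that chose the 8 genes, so their line differences are given as description, and the calls of the fit across all genes are counted beside the share of all genes with nothing read from them. Named besides were called genes of the segment, of its flanks (at most 10) and of the lists, the genes at the bounds, and the 2 genes most like each of the 8. A called flanking gene that enters the counts is not reported here by name. Residuals of Ce and St samples with the same replicate number correlated at 0.171 to 0.278 in the Co line (4 pairs) and -0.075 to 0.051 in the Hi line (3 pairs). In Co every Ce sample correlated best with the St sample of its own number, and in Hi only replicate 2 did. Pairs from one mouse are thus possible in Co. The main fit did not use the numbers as pairs. A fit with a replicate block is among the alternatives, but its blocks join samples of the same number from both lines. They are not blocks by mouse, so possible pairing within Co was not tested. Alternatives were other pseudocounts, filters and scalings, edgeR and DESeq2 1.42.0 on recovered fragments, sample weights, a replicate block, each region alone, and each sample left out.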

Additional observations from a re-analysis of the deposited data

Results flagged for a closer look

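BC018473, a long noncoding RNA gene between St6galnac2 and Jmjd6, fell below the filter and entered no comparison of the report. It was at 0 in all 8 Co samples, at 9.2, 12.7, 11.1 and 7.4 normalized counts in CeHi and at 3.9, 5.8 and 11.9 in StHi, or 61 fragments in 7 samples. Against a floor of 3 fragments per library its mean was at least 3.61-fold higher in CeHi and at least 1.94-fold higher in StHi than in Co. Of 11415 genes that were not tested, 2 were at 0 in every Co sample and above 0 in every Hi sample, BC018473 and Il6, the latter named after its values were seen.

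The line difference of 2 flanking genes differed between the regions by a test of the difference itself. For Rab37 the difference in Ce minus that in St was -1.34 ± 0.16 on the log2 scale (limma interaction, adjusted p = 0.00061), higher in all 3 StHi samples than in all 4 StCo samples. For Cd300lf it was 3.07 ± 0.51 (adjusted p = 0.0084), with every StHi sample below every StCo sample. That size depends on the pseudocount, since the 3 StHi samples held 9 fragments in all. Against a floor of 3 fragments per library the StHi mean of Cd300lf was at least 15.4-fold below the StCo mean, though StHi replicate 1 held 7 fragments.

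Single samples stood apart from the other 3 of their group in 5 of 60 groups of 4 that were checked, by Dixon's criterion at the 95% level, which chance alone meets in about 1 of 20 groups. H3f3b was highest in a CeHi sample at 16861 and lowest in a StCo sample at 5874.2. Rab37 was lowest in a CeCo sample at 766.72. 2310067B10Rik was highest in a CeCo sample at 3162.3 and Fdxr in a CeHi sample at 712.29.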

How the results depend on the processing

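All 16 line differences of the 8 genes kept their sign and moved by less than the SD between replicates under the 11 alternatives to the fit and the 15 fits without 1 sample. The 5 called region differences stayed called throughout. St6galnac2 (0.39) and 1110005A03Rik (0.17) became called under quantile scaling (adjusted p = 0.044 and 0.023), as did 1110005A03Rik without StCo replicate 3 (0.13, adjusted p = 0.037; 0.074 to 0.13 over single samples left out). DESeq2 called 1389 genes in Ce, 709 in St, 1.82% of genes for the interaction and 12 flanking genes in Ce, against 903, 405, 0.532% and 7. Sample weights called 740 genes in St and 1.20% for the interaction. Without single samples, 3 to 8 flanking genes were called in Ce, and 0.276% to 0.769% of genes for the interaction, with the low values without CeCo replicate 0 (0.322%), CeHi replicate 2 (0.348%), StHi replicate 1 (0.276%) and StHi replicate 2 (0.329%). With the replicate block 948 genes were called in Ce, 374 in St, 0.480% for the interaction and 7 flanking genes in each region. No member's region call changed with it. As the block joins the same numbers of both lines, it does not address pairs from one mouse. The members called between lines numbered 5 to 6 in Ce and 0 to 2 in St over all alternatives. St6galnac2 was not called in Ce in most fits without 1 sample, nor with each region fitted alone. Jmjd6 was not called in St with each region fitted alone, without StCo replicate 1 or without StHi replicate 2. In St, St6galnac2 was called with each region fitted alone, and Galr2 under quantile scaling and without StCo replicate 1. Depth limits Galr2, at 13.6 to 50.5 normalized counts, and BC018473. The causes were not tested.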
